A study of Mus musculus with 6 samples.

Results

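The 6 chemokine receptor genes *Ccrl2*, *Ccr1*, *Ccr7*, *Cxcr4*, *Ccr2* and *Cx3cr1* were followed in peritoneal macrophages (PEMs) of mice lacking Tim-4 in myeloid cells. They were chosen by symbol, all 6 were among the 15415 genes of the deposited table, and each had 1 row. RNA was sequenced in 6 libraries of PEMs, which are the cells that a starch injection draws into the peritoneal cavity of mice. The genotype was LysM-Cre; *Tim-4* fl/fl in the 3 knockout libraries and *Tim-4* fl/fl in the 3 control libraries, and the floxed line was made in C57BL/6J mice. Both groups carry the floxed *Tim-4* alleles, only the knockout mice carry Cre, and all 6 libraries are labelled as treated with lipopolysaccharide (LPS). The labels give no dose or time, and the study's methods describe a culture of PEMs with LPS for some hours. Cre is expressed from *Lyz2*, a gene of macrophages and neutrophils. By the study's methods the mice were young males. The labels do not state whether a library came from 1 mouse or from a pool, so the p-values measure only the spread between these libraries, which may be technical.

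The groups follow the sample titles, because the genotype entry of the labels names them the other way round. *Timd4*, which encodes Tim-4, was at 0.333, 0.394 and 0.246 FPKM (fragments per kilobase of gene length, scaled to the counted reads of the library) in the libraries titled as knockout and at 19.5, 12.05 and 1.19 FPKM in those titled as control. *Lyz2* was at 41.4, 4656 and 106 FPKM in knockout libraries 1, 2 and 3 and at 7090, 7171 and 8482 FPKM in the controls, so knockout library 2 stood apart from the other two. Control library 3 stood apart as well, with the lowest *Timd4* of the controls and a summed level of 12 large peritoneal macrophage markers of 3412 FPKM against 20729 and 15423 FPKM in the other controls. Most of that sum was *Saa3*, an acute-phase gene, and the other 11 markers summed to 406, 282 and 108 FPKM in the controls and to 18.3, 37.8 and 19.8 FPKM in the knockouts, so that control library 3 was the lowest of the controls but stayed above the knockouts. The libraries held between 36170767 and 42217558 reads, and 8 general macrophage markers summed to 1994 to 2940 FPKM, with *Cd68* at 816 to 1685 FPKM as the largest part and none of the 8 past the test. *Adgre1*, which encodes F4/80, was at 235 to 364 FPKM, while *Mertk* ranged from 0.821 FPKM in control library 3 to 12.1 FPKM.

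Chemokine receptors are G protein-coupled receptors that steer leukocytes along gradients of chemokines. *Ccr2* marks inflammatory monocytes and binds Ccl2, *Cx3cr1* marks patrolling monocytes and many resident macrophages and binds Cx3cl1, *Ccr1* binds several inflammatory CC chemokines, *Ccr7* guides activated dendritic cells and lymphocytes to lymph nodes, and *Cxcr4* binds Cxcl12 and retains cells in the bone marrow. *Ccrl2* differs from the rest in that it is an atypical receptor, which presents the chemoattractant chemerin to neighbouring cells instead of signalling for migration, and it is known as a gene that macrophages switch on after LPS.

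*Ccrl2* was the receptor with the most transcript and the one that passed the test, and it was higher in the knockout libraries by 1.62-fold in mean FPKM. *Ccr1* was 1.33-fold higher in the knockouts, while *Ccr7* and *Cxcr4* were 2.31-fold and 2.38-fold higher in the controls, and none of these 3 differences passed the test. *Ccr2* and *Cx3cr1* were barely detected in either group, with at most 69 reads in a library. The test was limma on log2(FPKM + 1) over the 9030 genes with a mean of at least 1 FPKM in one group, with Benjamini-Hochberg adjustment over all of them and a threshold of 0.05, and 4 of the 6 receptors passed this filter on low values. Of all tested genes 7.31% were called, 2.57% as higher and 4.74% as lower in the knockouts, beside 1 receptor called as higher and 0 as lower. The median log2 fold change of the 4 tested receptors was -0.27, and that of all tested genes was -0.11. Rescaling the libraries by the median of ratios brought the median of all genes to 0.01 and the share of higher genes among the called ones from 35.2% to 51.3%. After this rescaling the log2 fold change was 0.84 for *Ccrl2*, 0.54 for *Ccr1*, -0.95 for *Ccr7* and -0.83 for *Cxcr4*, with every receptor on the same side of the threshold as before. In RNA from a mixed cell preparation, fewer cells of a type and less RNA per cell cannot be told apart.

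**Figure D1:**
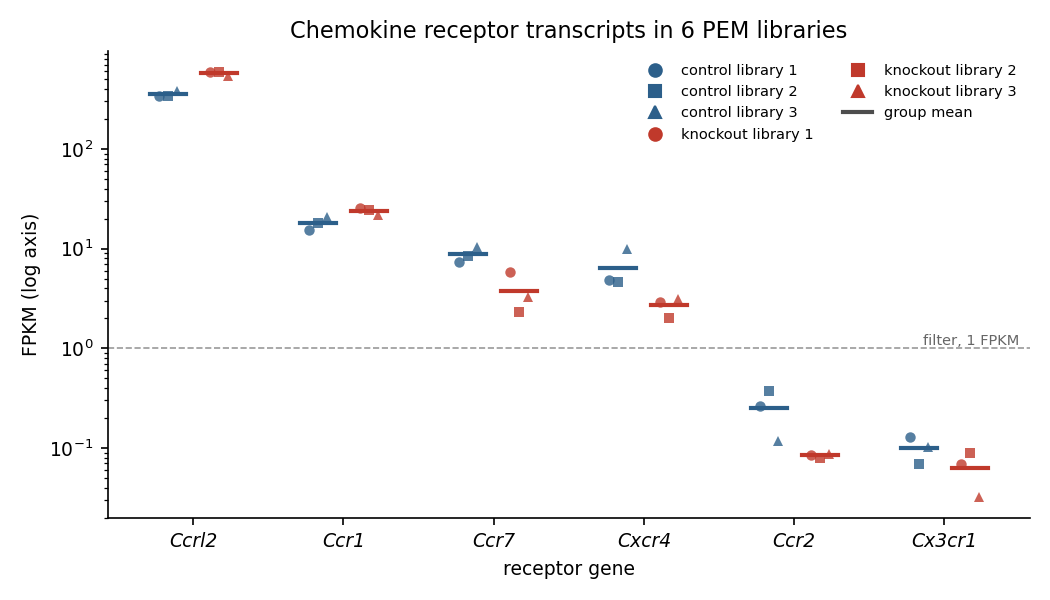
FPKM on a log axis for each of the 6 receptor genes, with 1 point per library (blue, control; red, knockout; shapes, library number), bars at the group means and a dashed line at the filter of 1 FPKM. *Ccrl2* lies between 338 and 592 FPKM, far above the other receptors, and *Ccr2* and *Cx3cr1* lie at or below 0.375 FPKM in every library.

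The atypical receptor *Ccrl2* (Entrez gene 54199) was at 590, 592 and 536 FPKM in knockout libraries 1, 2 and 3 and at 340, 338 and 384 FPKM in control libraries 1, 2 and 3. All 3 knockout libraries lay above all 3 controls, and the lowest knockout was well clear of the highest control. The means were 573 ± 32.1 FPKM in the knockouts and 354 ± 25.9 FPKM in the controls (SD, n = 3 each), which placed *Ccrl2* at rank 135 of the 15415 listed genes by mean FPKM. The counts behind these values were 49330 to 56248 reads per knockout library and 29601 to 31231 per control library. The log2 fold change of *Ccrl2* was 0.69 (SE 0.12, 95% confidence interval 0.41 to 0.98, limma adjusted p = 0.0231). Without knockout library 1, knockout library 2 or control library 2 the change was 0.67, 0.67 and 0.66 with limma adjusted p-values of 0.114, 0.125 and 0.0986, none of them past the threshold. Without control library 3, the change of *Ccrl2* was 0.75 (limma adjusted p = 0.0113).

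*Ccr1* (Entrez gene 12768), a receptor for Ccl3, Ccl5, Ccl6, Ccl7 and Ccl9, was at 25.8, 24.3 and 21.6 FPKM in the 3 knockouts, against 15.3, 17.9 and 20.6 FPKM in the controls. The groups did not overlap, but the lowest knockout, library 3, and the highest control, also library 3, were close to each other. The means were 23.9 ± 2.13 and 17.9 ± 2.64 FPKM (SD, n = 3 each), and the log2 fold change of 0.40 (SE 0.15, 95% confidence interval 0.05 to 0.75) did not pass (limma adjusted p = 0.137). Without knockout library 2 the change of *Ccr1* was 0.39 (limma adjusted p = 0.390) and without control library 3 it was 0.50 (limma adjusted p = 0.0569). *Ccrl2* and *Ccr1* were thus the 2 receptors with every knockout library above every control, an arrangement found in 11.1% of all tested genes.

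The promoters of *Ccrl2* and *Ccr1* are shown together with that of *Cxcr4* as 2 receptors whose values lay higher in the knockouts and 1 whose values lay lower, a choice made after the values were seen. RefSeq sequences of the mouse build GRCm38.p6, from 250 bases before to 50 bases after an annotated transcript start, were at hand for 5 of the 6 receptors, without *Ccr7*. They were searched on both strands for the NF-κB consensus, for the AP-1 motif TGANTCA and for the STAT-binding GAS motif TTCNNNGAA, and matches of one motif were allowed to overlap those of another. Capitals mark the NF-κB match, each sequence is on the minus strand of the genome and runs 5′ to 3′ toward the gene, and *Ccrl2* is shown at chr9:111057469-111057768, *Ccr1* at chr9:123968643-123968942 and *Cxcr4* at chr1:128592250-128592549.
Ccrl2: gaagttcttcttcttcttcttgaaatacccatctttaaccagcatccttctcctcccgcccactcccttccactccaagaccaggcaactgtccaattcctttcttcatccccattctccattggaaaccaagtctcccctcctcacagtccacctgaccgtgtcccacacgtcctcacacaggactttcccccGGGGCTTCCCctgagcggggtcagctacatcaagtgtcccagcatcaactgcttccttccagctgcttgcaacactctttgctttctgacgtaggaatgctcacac
Ccr1: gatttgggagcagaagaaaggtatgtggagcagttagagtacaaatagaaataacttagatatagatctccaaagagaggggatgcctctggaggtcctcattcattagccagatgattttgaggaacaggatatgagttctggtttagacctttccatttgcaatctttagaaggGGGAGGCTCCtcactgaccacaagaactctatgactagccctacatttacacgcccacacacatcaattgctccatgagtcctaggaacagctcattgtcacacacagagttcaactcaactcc
Cxcr4: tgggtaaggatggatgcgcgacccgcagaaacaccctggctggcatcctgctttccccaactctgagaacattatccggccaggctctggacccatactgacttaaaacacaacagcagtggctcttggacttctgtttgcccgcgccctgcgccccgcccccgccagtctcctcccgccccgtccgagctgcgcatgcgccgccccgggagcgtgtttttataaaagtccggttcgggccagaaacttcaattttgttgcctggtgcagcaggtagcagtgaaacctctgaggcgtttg
The match in *Ccrl2* begins at position -56 from the transcript start and that in *Ccr1* at position -74. The other annotated starts of *Ccrl2*, and the promoters of *Cxcr4*, *Cx3cr1* and *Ccr2*, held no match to the NF-κB consensus, and neither AP-1 nor GAS was matched in any of these windows. Among all 32851 RefSeq promoters of this length, 8.46% held the NF-κB consensus, 7.81% AP-1 and 8.30% GAS. A match is a string of letters in a window and not a measured binding site.

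*Ccr7* (Entrez gene 12775), the receptor for Ccl19 and Ccl21, lay below the controls in every knockout library. It was at 5.82, 2.33 and 3.24 FPKM in the knockouts and at 7.40, 8.46 and 10.5 FPKM in the controls. Knockout library 1 came closest to the controls, and control library 3 was the highest. The means were 3.80 ± 1.81 and 8.77 ± 1.55 FPKM (SD, n = 3 each), from 194 to 483 reads per knockout library and 577 to 747 per control library. The log2 fold change of *Ccr7* was -1.08 (SE 0.27, 95% confidence interval -1.71 to -0.45), and its limma adjusted p of 0.0553 missed the threshold, with an unadjusted p of 0.00467. Without knockout library 2 the change of *Ccr7* was -0.85 (limma adjusted p = 0.193) and without control library 3 it was -0.96 (limma adjusted p = 0.0698).

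*Cxcr4* (Entrez gene 12767), the receptor for Cxcl12, was at 2.94, 2.01 and 3.14 FPKM in the 3 knockouts, against 4.86, 4.58 and 9.82 FPKM in the controls. All knockouts lay below all controls, and control library 3 stood well above the other controls. The means were 2.70 ± 0.605 and 6.42 ± 2.95 FPKM (SD, n = 3 each), so the controls varied much more than the knockouts. The log2 fold change of *Cxcr4* was -0.95 (SE 0.27, 95% confidence interval -1.59 to -0.31, limma adjusted p = 0.0790). With the replicate number as a block, the change of -0.95 passed the threshold (limma adjusted p = 0.0351) and 2 of the 4 tested receptors were called, beside 9.47% of all genes in the blocked fit. Without control library 3, the library with the highest level, the change was smaller, at -0.64, and also passed (limma adjusted p = 0.0495), and without knockout library 2 it was -0.81 (limma adjusted p = 0.282). Both *Ccr7* and *Cxcr4* lay below the controls without overlap, as did 23% of all tested genes.

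*Ccr2* (Entrez gene 12772), the monocyte receptor for Ccl2, Ccl7 and Ccl12, was at 0.0856, 0.0802 and 0.0879 FPKM in the 3 knockouts, against 0.263, 0.375 and 0.117 FPKM in the controls. These values rest on 17, 16 and 17 reads in the knockouts and on 49, 69 and 20 reads in the controls. The knockouts lay below the controls without overlap, as did 21.3% of all genes in the table, but control library 3 was close to the knockouts. The gene was below the filter and was not tested with the others. When genes with a mean of at least 10 reads were tested with limma's voom on the reads, which called 6.15% of 12310 genes, the log2 fold change of *Ccr2* was -1.25 (adjusted p = 0.210).

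*Cx3cr1* (Entrez gene 13051), the fractalkine receptor, was at 0.0697, 0.0884 and 0.0325 FPKM in the 3 knockouts, against 0.128, 0.0684 and 0.103 FPKM in the controls, from 5 to 19 reads in a library. The groups overlapped, and in the same voom fit the log2 fold change of *Cx3cr1* was -0.55 (adjusted p = 0.571), so a difference was not detectable at this depth. The log2 ratio of *Ccr2* to *Cx3cr1* within a library was 0.53 ± 0.81 in the knockouts and 1.22 ± 1.15 in the controls (SD, n = 3 each, two-sided exact permutation p = 0.6, where 0.1 is the smallest that 3 against 3 can give).

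By FPKM, which accounts for gene length, the order of levels over all libraries was *Ccrl2*, *Ccr1*, *Ccr7*, *Cxcr4*, *Ccr2* and *Cx3cr1*. The lowest *Ccrl2* value, 338 FPKM, stood far above the highest *Ccr1* value of 25.8 FPKM, and the lowest *Ccr1* value of 15.3 FPKM stood above the highest *Ccr7* value of 10.5 FPKM. *Ccr7* ranged from 2.33 to 10.5 FPKM and *Cxcr4* from 2.01 to 9.82 FPKM, so their ranges over the libraries overlapped. Within every library *Ccr7* was above *Cxcr4*, most narrowly in knockout library 3, at 3.24 and 3.14 FPKM. The ranges of *Ccr2* and *Cx3cr1* overlapped as well at the bottom of the order. Within a library *Ccr2* was the higher of these except in knockout library 2, at 0.0802 and 0.0884 FPKM.

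The receptors *Ccr1* and *Ccr2* lie in a run of chemokine receptor genes on chromosome 9, in the order *Cxcr6*, *Xcr1*, *Ccr1*, *Ccr1l1*, *Ccr3* and *Ccr2*, with no other protein-coding gene between them in the RefSeq annotation of GRCm38.p6. *Ccrl2* and *Cx3cr1* are on the same chromosome outside this run, *Cxcr4* is on chromosome 1 and *Ccr7* on chromosome 11. Levels changed steeply from one gene of the run to the next. *Ccr1*, at 15.3 to 25.8 FPKM, was above the filter, while *Xcr1*, the receptor of cross-presenting dendritic cells, and *Ccr1l1* had at most 11 reads in a library. *Ccr3*, the eotaxin receptor, was at 0.307, 0.0543 and 0.245 FPKM in the knockouts and at 0.530, 0.883 and 0.855 FPKM in the controls. *Cxcr6*, the receptor for Cxcl16, was at 0.126, 0.1001 and 0.207 FPKM in the knockouts and at 0.495, 0.583 and 0.526 FPKM in the controls. Both lay below the controls in all knockout libraries. *Ccr1*, *Ccr1l1*, *Ccr3* and *Ccr2* are similar in sequence, and how reads matching several of them were counted is not given in the sources used here, so the split of reads among them is uncertain.

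**Figure D2:**
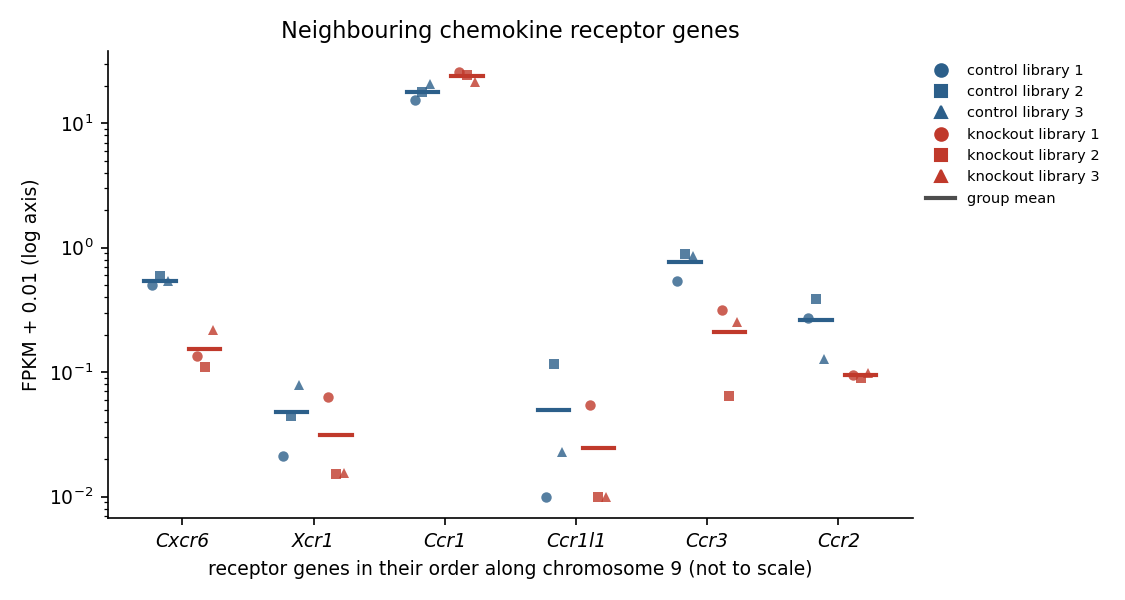
FPKM plus 0.01 on a log axis for 6 receptor genes in their order along chromosome 9, with 1 point per library and bars at the group means. *Ccr1* lies above 1 FPKM in every library, and *Ccr3*, *Cxcr6* and *Ccr2* lie lower in the knockout libraries than in the controls.

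Of 20 other chemokine receptor genes listed, 14 were in the table, 2 passed the filter and 1 was called, as lower. This gene was *Cxcr5*, the follicle-homing receptor of B cells, at 0.586, 0.664 and 0.361 FPKM in the knockouts and at 8.87, 5.18 and 1.95 FPKM in the controls (log2 fold change -1.88, SE 0.40, limma adjusted p = 0.0359). It was no longer called without the filter on low values, after rescaling the libraries by the median of ratios or in either voom fit on reads, nor without control library 2 or without any 1 of the knockout libraries. *Cmklr1*, the signalling receptor for the chemerin that *Ccrl2* presents, was at 46.6, 36.5 and 54.5 FPKM in the knockouts and at 66.4, 54.0 and 80.9 FPKM in the controls, with a log2 fold change of -0.54 (SE 0.20, limma adjusted p = 0.144). *Cmklr1* was the most abundant of the other receptors, and its groups touched at 54.5 and 54.0 FPKM. *Ackr3*, the scavenging receptor that shares Cxcl12 with *Cxcr4*, had 3 to 22 reads in a library. In all, 0 of the 14 receptors in the table lay above the controls without overlap and 5 lay below, beside the 21.3% of all genes in the table given for *Ccr2*. The 5 were *Ccr3*, *Ccr6*, *Ccr8*, *Cxcr5* and *Cxcr6*, of which *Cxcr6* was called as lower without the filter and in the voom fit on genes with a mean of at least 10 reads.

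The transcripts for the ligands of these receptors were described by the same fit. Of 14 ligand genes listed, 12 were in the table and 9 were tested, and 3 rose in the knockouts and 0 fell, with a median log2 fold change of 0.50, beside 2.57% called as higher and 4.74% as lower among all tested genes. The 3 were the Ccr2 ligands *Ccl2*, *Ccl12* and *Ccl7*, which lie close together in the genome and recruit monocytes. *Ccl2* was at 3391, 4226 and 1649 FPKM in the knockouts and at 1016, 773 and 649 FPKM in the controls (log2 fold change 1.84, SE 0.35, limma adjusted p = 0.0285). *Ccl12* rose by 1.83 (SE 0.33, limma adjusted p = 0.0245) and *Ccl7* by 1.71 (SE 0.37, limma adjusted p = 0.0397) on the log2 scale. In all 3 the lowest knockout was library 3, and it still lay above every control. None of the 3 was called without a filter on low values, or without knockout library 1, knockout library 2 or control library 2, and *Ccl7* was not called without control library 1 either.

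Among the other inflammatory CC chemokines, *Ccl4* had a log2 fold change of 0.80 (limma adjusted p = 0.0944), *Ccl9* of 0.50 (limma adjusted p = 0.0979), *Ccl5* of 0.50, *Ccl3* of 0.29 and *Ccl6* of 0.19, and none of these passed. With the replicate block *Ccl4* was called as well, and *Ccl9* was called after median-of-ratios rescaling and in both voom fits. *Ccl8*, at 33.1, 19.4 and 3.46 FPKM in control libraries 1, 2 and 3, had a log2 fold change of -1.15 (limma adjusted p = 0.306), and it was called as lower without control library 3. The ligands outside the inflammatory CC group were nearly silent in these cells. *Cxcl12*, the ligand of Cxcr4, had 8 to 61 reads in a library, *Cx3cl1*, the ligand of Cx3cr1, had 12 to 29, and *Rarres2*, which encodes chemerin, had 0 to 53.

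**Figure D3:**
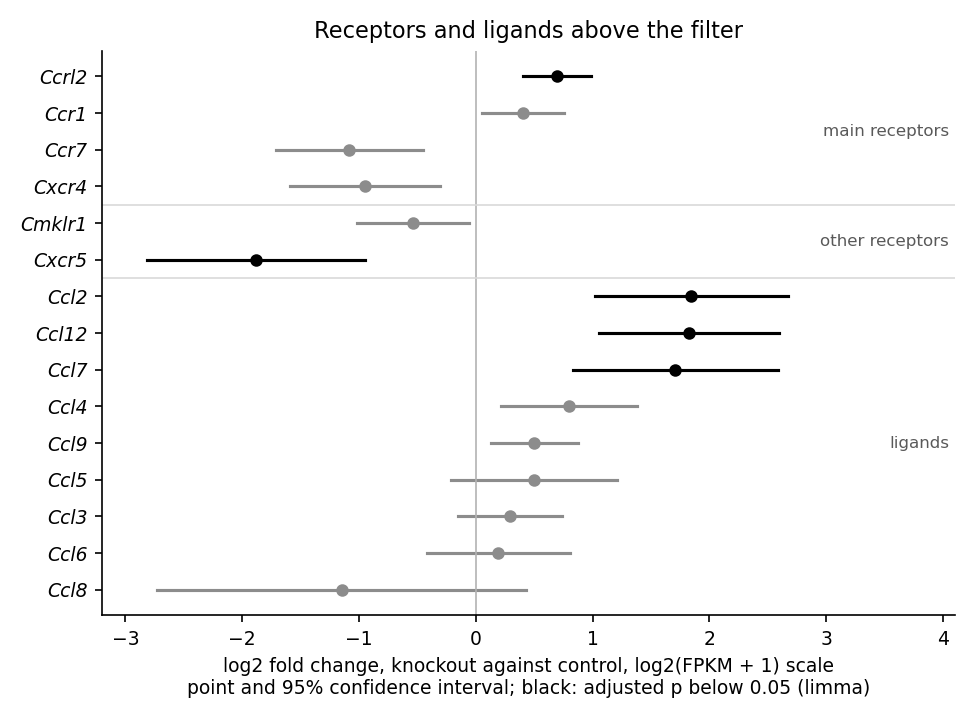
Log2 fold change of knockout against control on the log2(FPKM + 1) scale, as a point with its 95% confidence interval, for the 4 tested receptors, 2 other receptors and 9 ligands above the filter. Black marks an adjusted p under the threshold of 0.05, which holds for *Ccrl2*, *Cxcr5*, *Ccl2*, *Ccl12* and *Ccl7*, and the intervals of *Ccr7* and *Cxcr4* lie below 0 without passing after adjustment.

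Of 34 listed genes for signalling and desensitisation of chemokine receptors, 32 were in the table, 29 were tested, 1 rose and 1 fell, with a median log2 fold change of -0.06. This count of 2 in 29 is near the background of 7.31% called among all tested genes. *Rgs1*, which shortens G protein signalling below chemokine receptors, was at 88.6, 117 and 78.6 FPKM in the knockouts and at 24.8, 35.7 and 36.1 FPKM in the controls. It rose by 1.53 on the log2 scale (SE 0.21, limma adjusted p = 0.0125), and its groups were far from overlapping. *Grk5*, a kinase that phosphorylates activated G protein-coupled receptors, was at 1.17, 0.979 and 1.21 FPKM in the knockouts and at 2.35, 2.50 and 2.11 FPKM in the controls, with a log2 fold change of -0.65 (SE 0.12, limma adjusted p = 0.0263). Its relative *Grk3* had a log2 fold change of 1.20 (limma adjusted p = 0.0903), with control values of 0.770, 1.92 and 4.19 FPKM that reached close to the lowest knockout at 4.57 FPKM. The β-arrestins, which bind phosphorylated receptors and take them off the surface, had log2 fold changes of -0.89 for *Arrb1* (limma adjusted p = 0.0693) and -0.96 for *Arrb2* (limma adjusted p = 0.128). *Rgs1* and *Grk5* were not called without knockout library 1, knockout library 2 or control library 2, and *Grk5* not without knockout library 3. With the replicate block both β-arrestins were called, and 4 signalling genes in place of 2. The G protein, phosphoinositide 3-kinase and Rac genes on the list, such as *Gnai2* at 169 to 229 FPKM and *Rac1* at 138 to 157 FPKM, were not called with all libraries. Without control library 3, *Gng2*, *Pik3r5*, *Grk3* and *Vav1* were called in addition, without control library 1 *Rgs14* was (log2 fold change 1.02 with all libraries, limma adjusted p = 0.132), and without knockout library 3 both β-arrestins were.

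Markers of other cells in the peritoneal wash moved with the groups as well. For the counts that follow, 4.74% of all tested genes were called as lower. Of all genes in the table, 21.3% lay below the controls without overlap. The summed level of 6 B cell markers was 11.1, 10.6 and 11.2 FPKM in the knockouts and 109.7, 75.1 and 29.99 FPKM in the controls, 5 of the 6 lay below the controls in all knockouts, and 4 of the 5 tested were called as lower (*Cd79a*, *Cd79b*, *Ms4a1* and *Pax5*). *Cxcr5* ranked the controls in the same order as this sum, and the part of B cells in its level was not tested. *Ccr7* and *Cxcr4*, which B cells also express, were highest in control library 3, where the B cell sum was the lowest of the controls. The summed level of 6 mast cell markers was 1.89, 2.27 and 2.04 FPKM in the knockouts and 38.2, 39.0 and 49.3 FPKM in the controls, all 6 lay below the controls, and all 5 tested were called as lower (*Cpa3*, *Kit*, *Mcpt4*, *Tpsb2* and *Cma1*). The summed level of 9 dendritic cell markers was 67.0, 29.5 and 43.2 FPKM in the knockouts and 13.3, 30.1 and 85.6 FPKM in the controls, carried mainly by *Fscn1* and *Ccl22*, and 0 of the 2 tested were called. This sum was highest in control library 3 and, among the knockouts, in library 1, the libraries in which *Ccr7* was highest in each group, while control library 1 had the lowest sum and a *Ccr7* level above every knockout. The part of B cells, mast cells and dendritic cells in the levels of *Ccr7* and *Cxcr4* was not tested.

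The markers of monocytes and of small peritoneal macrophages did not move as one. The summed level of 11 such markers was 235, 226 and 260 FPKM in the knockouts and 6656, 3787 and 357 FPKM in the controls, and *Retnla* and *Chil3*, both genes of alternatively activated macrophages, carried this gap. Without these genes the other 9 markers summed to 162, 139 and 200 FPKM in the knockouts and to 238, 186 and 114 FPKM in the controls, which overlap. Of the 10 tested, 3 were called as lower (*Retnla*, *Plac8* and *Irf4*) and 7 were not called, among them *Ly6c2* with a log2 fold change of 0.21 and *Ms4a4c* with 1.33. Beside this count and those of the lists below, 4.74% of all tested genes were called as lower and 2.57% as higher. *Ccr2* was lowest among the controls in library 3, as were *Retnla* and *Chil3*, whereas *Ly6c2*, the monocyte marker of the list, was at 5.42, 14.9 and 32.5 FPKM in control libraries 1, 2 and 3 and so highest there. The sum of 6 patrolling monocyte markers was 6.08, 4.68 and 13.2 FPKM in the knockouts and 17.1, 27.5 and 58.2 FPKM in the controls, with *Treml4* as the largest part in control library 3 at 48.6 FPKM, and 1 of the 5 tested, *Nr4a1*, was called as lower (log2 fold change -1.26, limma adjusted p = 0.0292). Of the 9 large peritoneal macrophage markers tested, 0 were called as higher and 5 as lower (*Icam2*, *Prg4*, *Vsig4*, *Cd5l* and *Alox15*), and *Saa3*, at 2258, 3026 and 3668 FPKM in the knockouts and 3304 FPKM in control library 3, was not called. Neutrophil markers summed to 108 to 229 FPKM in the knockouts and 229 to 477 FPKM in the controls, mainly from *S100a8*, *Mmp8* and *Csf3r*. Of the 5 neutrophil markers tested, 2 were called as lower, *S100a8* at a log2 fold change of -1.58 (limma adjusted p = 0.0113) and *Camp* at -0.64 (limma adjusted p = 0.0454). T and NK cell markers summed to at most 1.83 FPKM, and the 1 eosinophil marker in the table to at most 0.203 FPKM. Mesothelial cell and fibroblast markers summed to 13.0, 36.6 and 16.2 FPKM in the knockouts and to 2.10, 6.45 and 13.7 FPKM in the controls, with 0 of the 5 tested called by limma and 3 of them at an unadjusted p under 0.05. The part of these cells in the receptor levels was not tested.

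**Figure D4:**
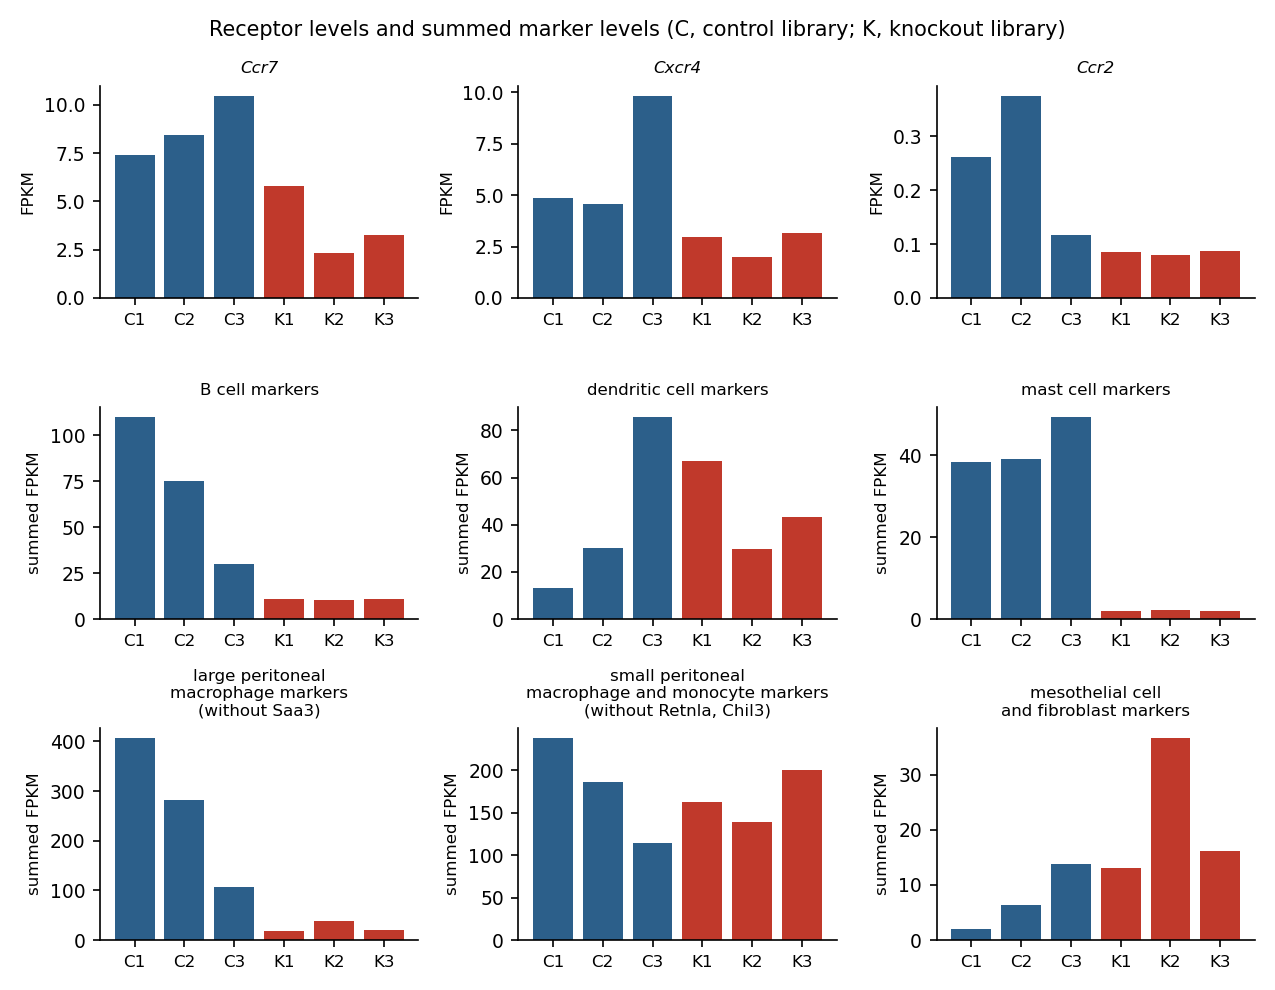
FPKM of *Ccr7*, *Cxcr4* and *Ccr2* and the summed FPKM of 6 marker lists, without *Saa3* in the large and without *Retnla* and *Chil3* in the small macrophage list, with 1 bar per library (C, control, blue; K, knockout, red) and axes that start at 0. *Ccr7* and *Cxcr4* are highest in C3, where the B cell sum is the lowest of the controls at 29.99 FPKM, the mast cell sum is the highest at 49.3 FPKM, and *Ccr2* is the lowest of the controls.

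The genes whose profiles over the 6 libraries were most like those of the tested receptors were found by the root mean square difference between centred log2(FPKM + 1) values, among genes with a mean of at least 5 FPKM. For *Ccrl2* they were *Pim1*, with a difference of 0.0253, *Tapbpl* at 0.0587 and *Psap* at 0.0833. *Pim1*, a serine/threonine kinase, was at 307, 305 and 266 FPKM in the knockouts and at 169, 169 and 193 FPKM in the controls, which is close to *Ccrl2* in every step between libraries. For *Ccr1* they were *Rragc* at 0.0401, *Dhps* at 0.0470 and *Socs7* at 0.0549. The profiles nearest to *Ccr7* were less close, with *LOC118568415*, a non-coding gene, at 0.139, *Swap70* at 0.207 and *Dusp5* at 0.235. Those nearest to *Cxcr4* were *Mef2d* at 0.144, *Sfn* at 0.149 and the glucose transporter gene *Slc2a1* at 0.149, each with its highest value in control library 3. These likenesses describe 6 libraries in 2 groups and carry no test.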

How the data were processed

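RNA of 6 PEM libraries, 3 knockout and 3 control, was analysed from 1 deposited table of 15415 genes. Its main values are FPKM for each library, which the authors computed from reads per gene. The deposited signal columns hold the mean read count of each group divided by size factors. The authors also deposited the results of their own comparison (fold change as a ratio and on the log2 scale, p-value, q-value), and these were not used. The submitters' processing notes name the build mm9, and the aligner, counter and annotation are not given in the sources used here. RefSeq sequences and gene order are of GRCm38.p6 and were joined by symbol only. Whole reads were recovered from FPKM and group means (100% of values within 0.01 of a whole number), and no column of per-library values was left unused.

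Limma 3.58.1 in R 4.3.3 (lmFit, eBayes with trend) was fitted to log2(FPKM + 1) over the 9030 genes with a mean of at least 1 FPKM in one group, which understates the change of low genes. Reads per library limit the precision of the lowest genes, and the number of libraries that of the rest. The code was tested on simulated data. Exact permutation tests used scipy 1.17.1. Deviations of libraries with the same number in their titles correlated positively across genes (0.109, 0.11 and 0.304). Other pairs ranged from -0.332 to 0.291, and knockout library 2 with control library 1, at 0.291, exceeded the pairs numbered 1 and 2. These values do not settle whether the number pairs the libraries, so it was used as a block only in an alternative fit. Other alternatives were the filter, the pseudocount, median-of-ratios rescaling, voom on reads, eBayes without a trend and leaving out each library. The receptors and gene lists were chosen with earlier results of these data known. Named are all 6 receptors, listed genes past the threshold, the 3 largest changes of the receptor, ligand and signalling lists, genomic neighbours, shared-ligand receptors, and the 3 most alike profiles per tested receptor. 1 planned comparison and 2 listed genes are not reported here. Other ligands, signalling genes and markers were named after their values were seen.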

Additional observations from a re-analysis of the deposited data

How the results depend on the processing

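*Ccrl2* stayed past the threshold in 11 of 14 alternatives, *Cxcr4* passed in 2 of 14, and *Ccr1* and *Ccr7* in 0 of 14, with no change of direction in any of them. Adjusted p-values from limma ranged from 0.0113 to 0.125 for *Ccrl2*, from 0.0569 to 0.390 for *Ccr1*, from 0.0554 to 0.193 for *Ccr7* and from 0.0351 to 0.282 for *Cxcr4*. With the replicate block, *Cxcr4* passed at -0.95 (limma adjusted p = 0.0351), the called receptors rose from 1 to 2, the called ligands from 3 to 4 and the called signalling genes from 2 to 4. The block changed no call of the other 3 tested receptors, and the log2 ratio of *Ccr2* to *Cx3cr1* (-0.69) had an exact permutation p of 0.75 under it. Without a filter 0 ligands were called by limma in place of 3, with 5 of 12 at an unadjusted p under 0.05 and 4 called by voom on reads with a mean of at least 10. Median-of-ratios rescaling and voom each called 0 of the 2 other receptors, with 1 at an unadjusted p under 0.05 in each. For the untested genes, a pseudocount of 0.1 gave log2 fold changes of -0.86 for *Ccr2* and -0.29 for *Cx3cr1*, and voom with a mean of at least 10 reads, added after the data were seen, gave -1.25 and -0.55.

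Leaving out each library in turn, the number of genes called over all tested genes ranged from 8 without control library 2 to 1333 without control library 3, with 30 without knockout library 1 and 63 without knockout library 2, against 660 with all libraries. The called receptors ranged from 0 to 2, the other receptors from 0 to 2, the ligands from 0 to 4 and the signalling genes from 0 to 6. The log2 fold change ranged from 0.66 to 0.75 for *Ccrl2* and from -1.12 to -0.64 for *Cxcr4*. The cause of these changes was not tested. *Ccr2* had 16 to 69 reads in a library and *Cx3cr1* 5 to 19, so counting error is large for both.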
